A study of Mus musculus with 2 samples.

Results

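The set described here holds 10 of the 32285 genes in the deposited tables, chosen by symbol as chaperones and folding factors of the endoplasmic reticulum. They are Hspa5, Hsp90b1, Pdia3, Pdia4, Pdia6, Calr, Canx, Sdf2l1, Manf and Herpud1. All 10 were found in both libraries. They were chosen by function, with earlier results of these data known.

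The cells came from the cortices of male mice, 4 months old, that were Fam69c wild type or Fam69c knockout. Cortices were pooled by genotype, dissociated, stained with 7-AAD, a dye taken up by dead cells, and sorted. Each pool gave 1 droplet library with 10x Genomics 3′ chemistry. The labels name 7 mice and do not say whether that is per genotype. Genotype and pool therefore cannot be told apart, and no test was made. All intervals below are 95% intervals for counting error alone. They are exact Poisson for levels, exact conditional binomial for ratios and exact Clopper-Pearson for shares of cells.

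Proteins that are secreted or sit in membranes fold in the endoplasmic reticulum. BiP, the product of Hspa5, binds unfolded chains and holds the stress sensors Ire1, Perk and Atf6 inactive. When unfolded chains draw BiP away, those sensors start the unfolded protein response, which switches on most genes of this set. Fam69c encodes a kinase-like protein of the same compartment. In the brain, oligodendrocytes depend on this pathway for the large amounts of membrane protein in myelin.

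The short promoter motifs of that response are printed first because they show which members hold the letters of a known control element. The endoplasmic reticulum stress element (ERSE, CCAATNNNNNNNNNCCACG) is bound by NF-Y at its CCAAT end and by cleaved Atf6 at its CCACG end, so each ERSE also contains a CCAAT box. RefSeq windows of the 250 bases before a gene start (GRCm38.p6) were searched on both strands. An exact ERSE was found in 37 of 32851 windows (0.113%) and in 5 of the 9 members with a window. The members were chosen by function, and the motif belongs to the response that controls such genes. Their higher share is therefore a description and no test. Manf had no entry. Each match is given on the strand of the motif, with capitals at the bases that equal the fixed letters of the motif.
Hspa5: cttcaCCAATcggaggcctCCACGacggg
Hsp90b1, far match: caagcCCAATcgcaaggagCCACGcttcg
Hsp90b1, near match: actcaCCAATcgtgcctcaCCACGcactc
Pdia6: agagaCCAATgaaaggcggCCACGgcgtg
Calr: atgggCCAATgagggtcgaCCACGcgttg
Canx: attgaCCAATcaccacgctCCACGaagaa
Pdia3, 1 mismatch: cgcagCCAATcggcggctgCCACactgcg
Pdia4, 1 mismatch: gaccaCCAATcacgggctgCCACtcggtt
The Hspa5 match lies at chr2:34772020-34772048 on the plus strand, with the motif 65 to 47 bases before the RefSeq start. Those of Hsp90b1 lie at chr10:86705633-86705661 (minus) and chr10:86705528-86705556 (plus). The others lie at chr12:17266486-17266514 (plus) for Pdia6, chr8:84847070-84847098 (plus) for Calr and chr11:50325795-50325823 (minus) for Canx. The matches with 1 mismatch lie at chr2:121413868-121413896 (plus) for Pdia3 and chr6:47813597-47813625 (plus) for Pdia4. Allowing 1 mismatch in the fixed letters, 432 windows (1.32%) and 7 of the 9 member windows held the element.

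Herpud1 held no such element within 1 mismatch, but it held the related ERSE-II and a composite C/EBP-ATF site, the kind bound by Atf4 and CHOP.
Herpud1, ERSE-II: cgggcgctgATTGGgCCACGttggacact
Herpud1, C/EBP-ATF: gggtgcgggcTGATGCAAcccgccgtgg
Hspa5, UPRE core: gggcgtagcaaTGACGTGagttgcggagg
They lie at chr8:94386368-94386396 (plus), chr8:94386307-94386334 (minus) and chr2:34771922-34771950 (plus). ERSE-II (ATTGGNCCACG) was found in 10 of all windows (0.0304%), the C/EBP-ATF letters TGATGCAA in 260 (0.791%) and the UPRE core TGACGTG in 542 (1.65%). None of these motifs was found in the Sdf2l1 window. A match is a string of letters and was not tested as a binding site.

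The tables held 7150 wild-type and 9182 knockout barcodes, with 57166105 and 75473717 UMIs (unique molecular identifiers, 1 per captured transcript). After filters 4940 and 7032 cells remained, and marker genes placed 4283 and 6768 of them in a class (86.7% and 96.2%). The 657 wild-type cells left without a class had a median of 1261 UMIs, against 5008 for the 264 in the knockout library. Placed cells that lay near a limit of the gate numbered 241 and 98, or 4.88% and 1.39% of all kept cells. The libraries shared 17 barcodes, 10 of them among kept cells. Fam69c, listed under its current symbol Dipk1c, stood at 32.3 CPM (UMIs per 1000000 UMIs of the cells in question) over all wild-type cells and 20.6 over all knockout cells. A 3′ tag can lie outside a deleted part, so this does not check the labels fully. In astrocyte-like cells Dipk1c stood at 59.5 and 33.7 CPM. Hemoglobin RNA, a sign of blood or free RNA, was at 4040 and 1779 CPM in astrocyte-like cells and at 5616 and 1071 CPM in oligodendrocyte-like cells.

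The 10 members together stood at 2521 CPM over all wild-type cells and 2732 CPM over all knockout cells. Their level differed more between classes than between the libraries of a class. It was highest in fibroblast-like cells, at 7006 CPM in the wild-type library (54 cells) and 6273 CPM in the knockout library (125 cells). Microglia-like cells came next, at 5634 CPM (258 cells) and 6003 CPM (325 cells). Astrocyte-like cells held 2528 CPM (2366 cells) and 2751 CPM (4217 cells), and oligodendrocyte-like cells 2270 CPM (706 cells) and 2457 CPM (804 cells). Endothelial-like cells, at 2285 and 2355 CPM, lay close to them. Neuroblast-like cells, which carried Dcx and Dlx genes of newborn neurons, held 1583 CPM (235 cells) and 1755 CPM (457 cells). B cell-like cells held 1792 and 2004 CPM, and T cell-like cells 1423 and 1383 CPM. The lowest wild-type level was 649 CPM in erythroid-like cells. Hemoglobin RNA stood at 694590 CPM there (643660 CPM in the knockout library), which leaves a small share for every other gene. Low member levels in erythroid-like cells are to be read with that limit, and levels relative to a total without hemoglobin are not given here. In classes with 50 cells in the knockout library alone, monocyte-like cells held 4172 CPM, pericyte-like cells 2670 CPM and neutrophil-like cells 463 CPM, the lowest of that library. The wild-type intervals of neighbours in this order overlapped only for endothelial-like and oligodendrocyte-like cells. In the knockout library they overlapped along the run from astrocyte-like through pericyte-like and oligodendrocyte-like to endothelial-like cells.

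**Figure D1:**
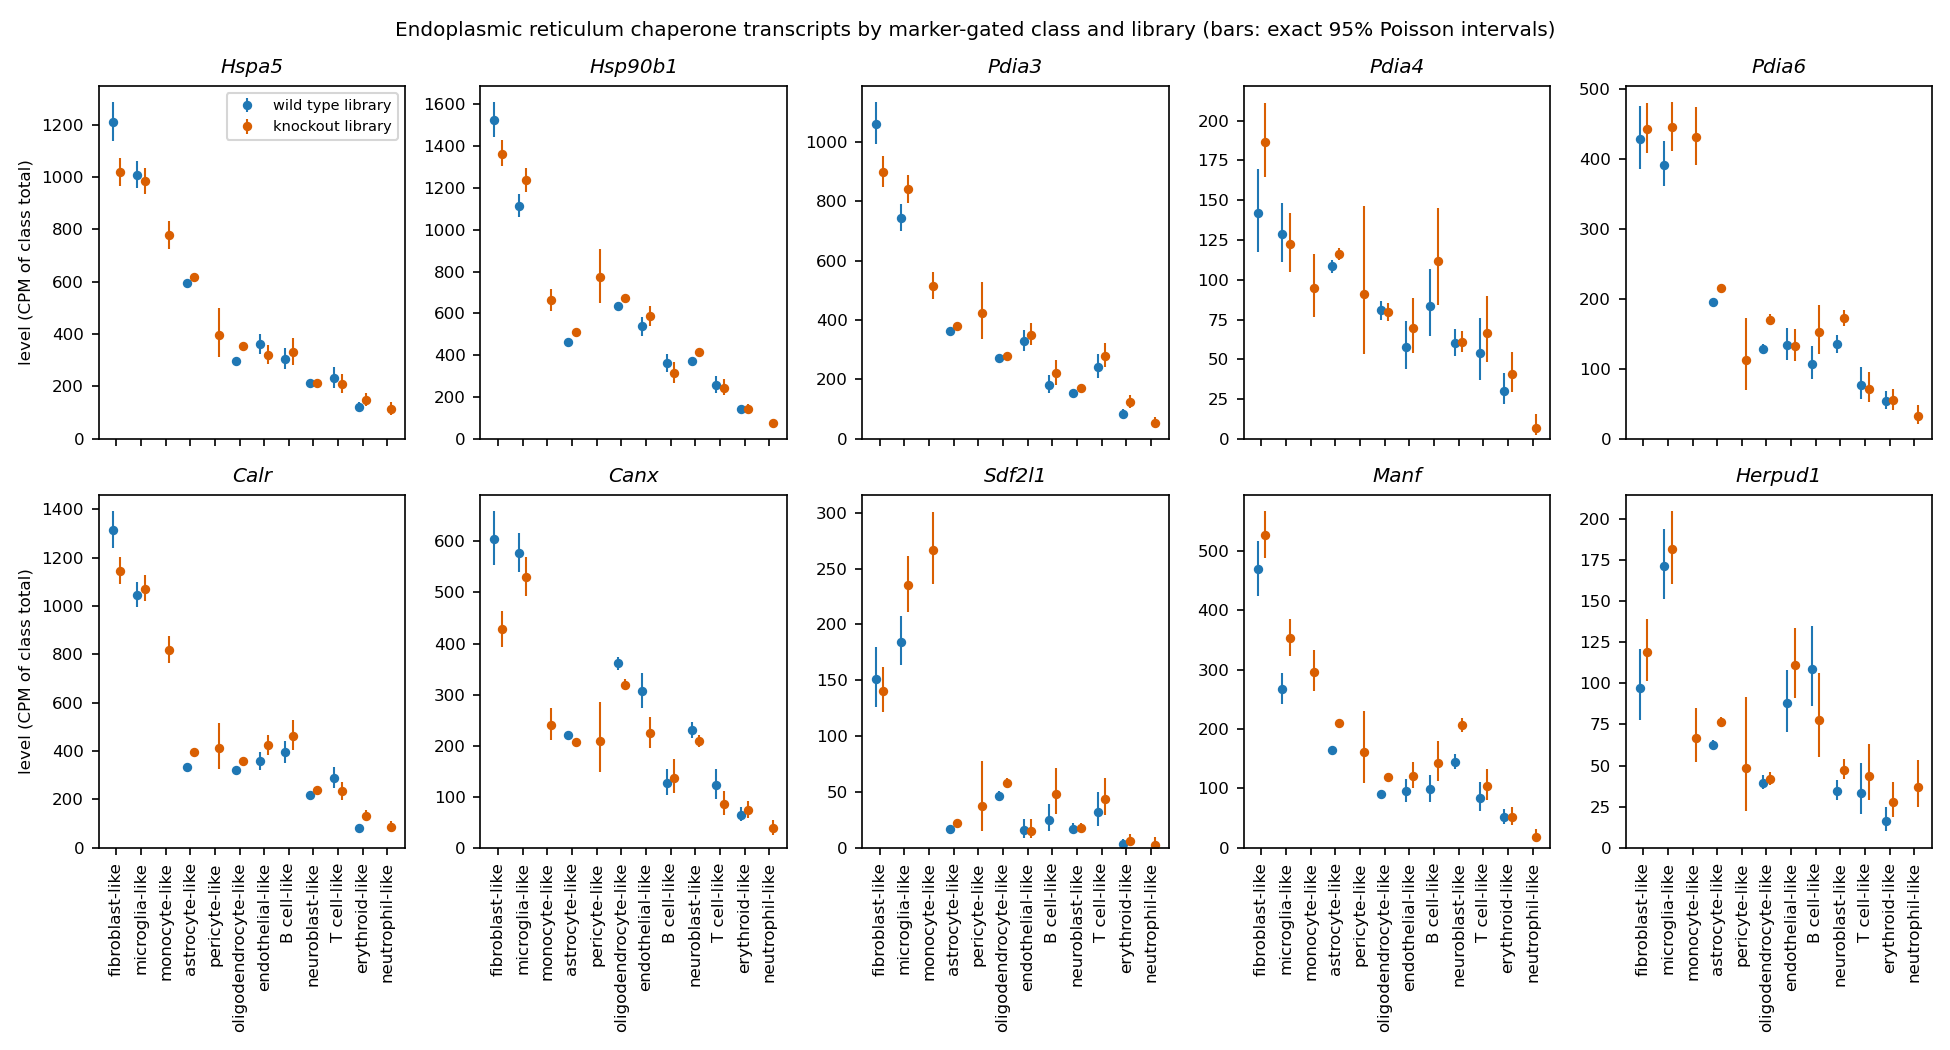
Level of each member (CPM of the class total, linear axis from 0) in every class with at least 50 cells, with 1 point per library and bars for the exact 95% Poisson interval. Most members are highest in fibroblast-like and microglia-like cells, and the erythroid-like and neutrophil-like cells lie lowest. The erythroid-like levels are shares of a total made up mostly of hemoglobin RNA.

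The class names rest on markers, and 3 of them need a limit. All 10 astrocyte markers were found in at least 20% of astrocyte-like cells, but none was among the 10 genes with the highest fold there, a list led by Ntm, Gabbr2 and Hapln1. Fibroblast-like cells were led by Ccn3, Penk and Slc26a7 and had 1 of their markers among those 10 genes. Erythroid-like cells differed in depth, with median UMIs of 1571 (wild type) and 20436 (knockout), and 54 of 160 and 7 of 50 of them lay near a limit of the gate.

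Hspa5 (BiP, ENSMUSG00000026864) was highest in fibroblast-like cells, at 1211 and 1018 CPM, wild type first. It was lowest in erythroid-like cells of the wild-type library, at 121 CPM, and in neutrophil-like cells of the knockout library, at 113 CPM. Neuroblast-like cells held 215 and 215 CPM. Its wild-type and knockout levels were 1008 and 983 CPM in microglia-like cells and 597 and 616 CPM in astrocyte-like cells. Oligodendrocyte-like cells held 296 and 355 CPM, below astrocyte-like cells in both libraries. Hsp90b1 (Grp94, ENSMUSG00000020048), the Hsp90 of this compartment that folds integrins and Toll-like receptors, had another order. Oligodendrocyte-like cells held 636 and 673 CPM of Hsp90b1, above the 465 and 513 CPM of astrocyte-like cells. Canx, the membrane-bound lectin chaperone calnexin, shared this order with 361 and 319 CPM in oligodendrocyte-like and 221 and 206 CPM in astrocyte-like cells. The small co-chaperone Sdf2l1, which works with BiP and Dnajb11, had the widest range. It stood at 184 and 235 CPM in microglia-like cells and 267 CPM in knockout monocyte-like cells, but at 16.7 and 22.5 CPM in astrocyte-like cells. Its lowest levels, 2.96 CPM in wild-type erythroid-like and 2.63 CPM in knockout neutrophil-like cells, rested on 4 and 2 UMIs.

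The make-up of the set also differed by class. Shares here are of member UMIs, which 3′ counting does not divide by transcript length. Hsp90b1 made up 28.0% of member UMIs in wild-type and 27.4% in knockout oligodendrocyte-like cells, against 18.4% and 18.7% in astrocyte-like cells. Hspa5 made up 23.6% and 22.4% in astrocyte-like cells and 13.0% and 14.4% in oligodendrocyte-like cells. Calr, the soluble lectin chaperone calreticulin, had 22.1% and 23.2% in B cell-like cells. Manf, a secreted and BiP-bound protein known for protecting neurons, had 9.17% and 11.8% in neuroblast-like cells against 3.99% and 4.83% in oligodendrocyte-like cells. In these classes the 2 libraries lay closer to each other than the classes did.

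**Figure D2:**
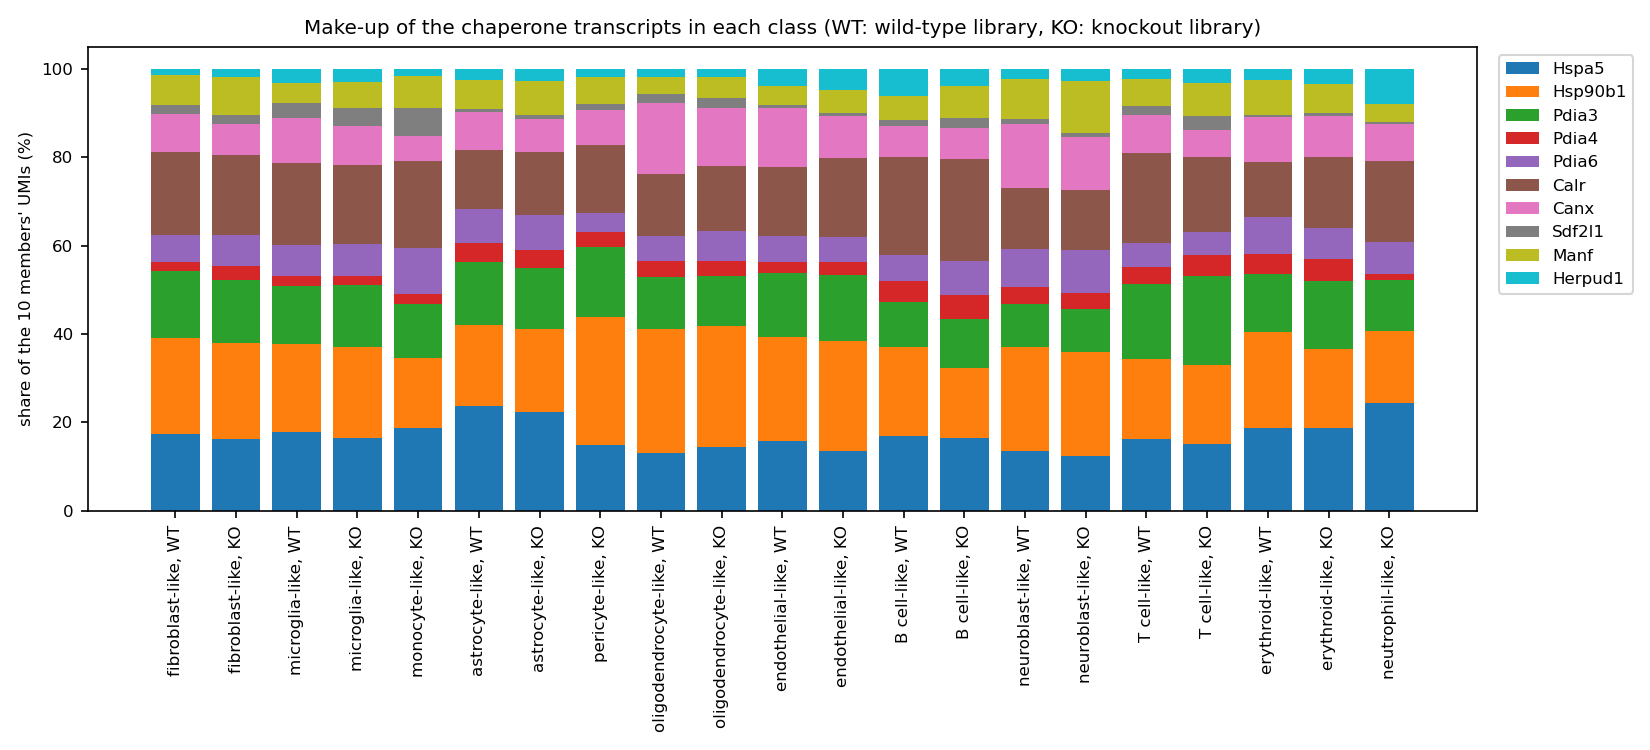
Share of the member UMIs (percent) taken by each of the 10 genes, with 1 bar per class and library. Within a class, Hsp90b1 is the largest of the 10 in oligodendrocyte-like cells and Hspa5 the largest in astrocyte-like cells, in both libraries. Hsp90b1 is also the largest in neuroblast-like, microglia-like, endothelial-like and fibroblast-like cells of both libraries.

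Next, the knockout library was set against the wild-type library within each class. The summed level was slightly higher in the knockout library in the 4 classes with at least 200 cells per library. The log2 ratio was 0.12 (0.11 to 0.14) in astrocyte-like, 0.11 (0.09 to 0.14) in oligodendrocyte-like, 0.15 (0.10 to 0.20) in neuroblast-like and 0.09 (0.05 to 0.13) in microglia-like cells. As a ratio this is 1.09, 1.08, 1.11 and 1.07. The median log2 ratio of the 10 members was 0.14, 0.12, 0.13 and 0.12 in that order. The median over all measured genes was -0.11, -0.06, -0.10 and -0.01, where measured means at least 50 UMIs over both libraries. How far pools of mice differ by themselves is not known from 1 library each.

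A gene was counted as past the fold when the higher library exceeded the lower by at least 25%. In astrocyte-like cells 2 of 10 members were past it on the higher side (Sdf2l1 and Manf), where 14.1% of all measured genes were, and 0 on the lower side, where 27.9% were. In oligodendrocyte-like cells 3 of 10 were higher (Pdia6, Sdf2l1 and Manf, background 9.03%) and 0 lower (background 20.1%). In neuroblast-like cells 3 of 10 were higher (Pdia6, Manf and Herpud1, background 9.73%) and 0 lower (background 26.7%). In microglia-like cells 2 of 10 were higher (Sdf2l1 and Manf, background 18.8%) and 0 lower (background 21.3%). With 10 members, 1 gene moves such a share by a large step, so the counts in astrocyte-like and microglia-like cells lie near the background. That background depends on the scaling. With trimmed mean scaling 25.4% of genes were past the fold on the higher and 15.5% on the lower side in astrocyte-like cells, 13.5% and 14.7% in oligodendrocyte-like cells, and 19.9% and 16.7% in neuroblast-like cells. The members past it were then 4, 4 and 3 on the higher side and 0 on the lower side.

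**Figure D3:**
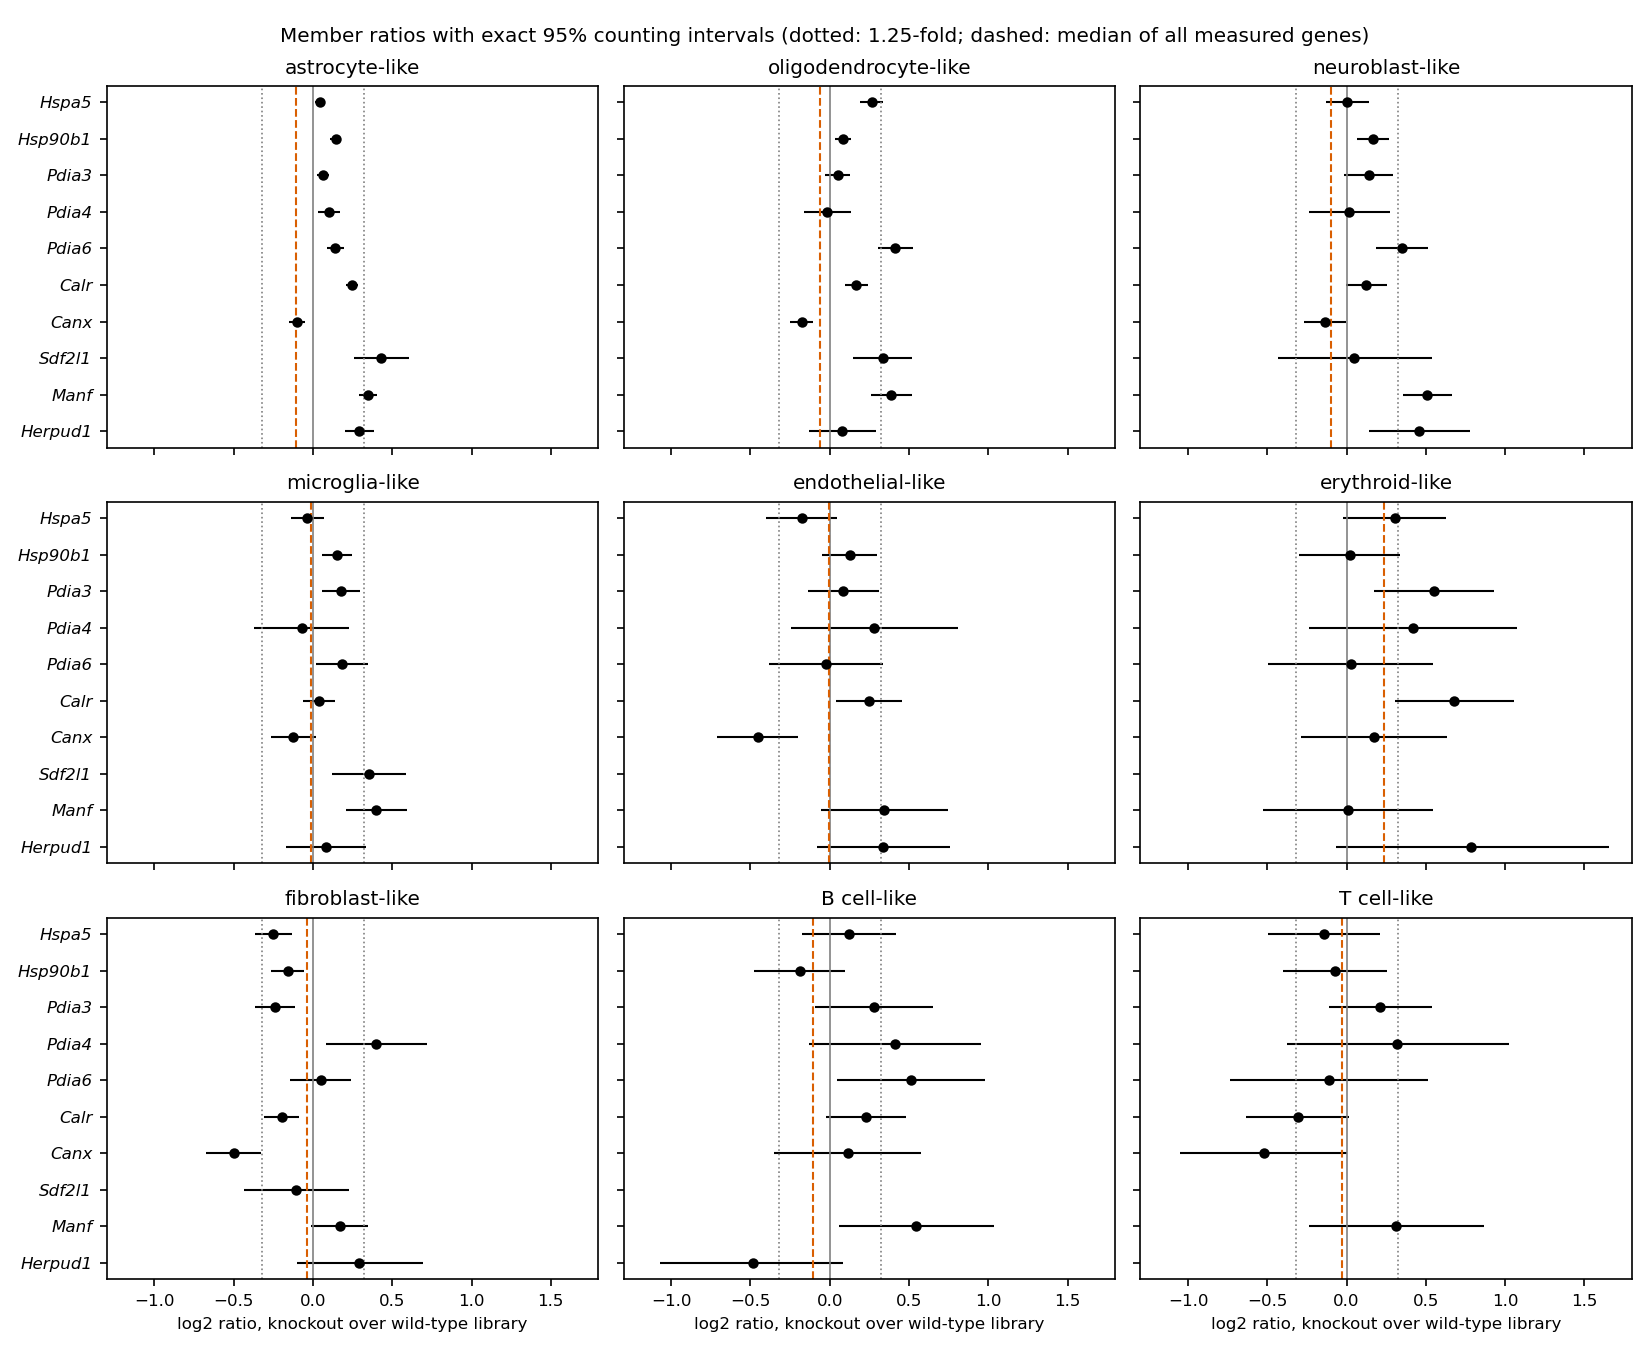
Log2 ratio of the knockout over the wild-type library for each member, with 1 panel per class, exact 95% intervals as bars, dotted lines at that 25% limit and a dashed line at the median of all measured genes. Members under 50 UMIs are left out. Manf lies right of 0 in every panel, at 0.01 in erythroid-like cells where trimmed mean scaling turns it to -0.18 and equal cell weights to -1.90. Thinning turns its fibroblast-like value to -0.07. Canx lies left of 0 in 7 of the 9, of which the astrocyte-like value turns to 0.05 under trimmed mean scaling.

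Manf (ENSMUSG00000032575) gave the most uniform difference. In astrocyte-like cells wild type and knockout stood at 165 and 210 CPM (log2 ratio 0.35, 0.29 to 0.40). In oligodendrocyte-like cells it was 90.6 and 119 CPM (0.39, 0.26 to 0.52). In neuroblast-like cells it was 145 and 206 CPM (0.51, 0.36 to 0.66), and in microglia-like cells 268 and 353 CPM (0.40, 0.21 to 0.59). In these 4 classes the intervals of the ratio lay above 1. The ratio was above 1 in 9 of 9 classes, past the fold in 6, and its interval lay above 1 in 5. In those 6 classes 9.03% to 19.2% of all measured genes were past the fold on the higher side. In erythroid-like cells the log2 ratio was 0.01 and kept its direction in 3 of 10 alternative settings. It was -0.18 there with trimmed mean scaling and -1.90 with equal cell weights. In fibroblast-like cells thinning to 2000 UMIs turned it from 0.17 to -0.07. Manf shares its locus with Rbm15b on the same strand and Dcaf1 on the other, and its count is uncertain to that extent.

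Hspa5, the central chaperone and sensor regulator, had smaller ratios. Its log2 ratio was 0.05 (0.02 to 0.08) in astrocyte-like, 0.00 (-0.13 to 0.14) in neuroblast-like and -0.04 (-0.14 to 0.07) in microglia-like cells. Oligodendrocyte-like cells were the exception among the 4 classes, with 296 and 355 CPM and a log2 ratio of 0.26 (0.19 to 0.34). Thinning of cells to 2000 UMIs put this ratio at 0.14, below that interval, and every alternative kept it above 0. Hsp90b1 had log2 ratios of 0.14 (0.11 to 0.18), 0.08 (0.03 to 0.13), 0.17 (0.07 to 0.27) and 0.15 (0.06 to 0.25) in astrocyte-like, oligodendrocyte-like, neuroblast-like and microglia-like cells. All 4 intervals lay above 0 and none of the 4 ratios was past the fold. With cells thinned to 2000 UMIs the value in oligodendrocyte-like cells turned to -0.01. Hsp90b1 overlaps a pseudogene on the other strand and a transcript on its own strand, and the sources used here do not state whether counting used strand.

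Among the disulfide isomerases, which form and reshuffle disulfide bonds, Pdia6 had the highest ratio in astrocyte-like, oligodendrocyte-like and neuroblast-like cells, and one close to that of Pdia3 in microglia-like cells. Its level was 128 and 170 CPM in oligodendrocyte-like cells (log2 ratio 0.41, 0.30 to 0.52) and 135 and 172 CPM in neuroblast-like cells (0.35, 0.19 to 0.51). Its ratio was smaller in astrocyte-like cells, at 0.14 (0.09 to 0.19), and in microglia-like cells, at 0.18 (0.02 to 0.35). Pdia3, which works on glycoproteins held by Calr and Canx, had log2 ratios of 0.06, 0.05, 0.14 and 0.18 in astrocyte-like, oligodendrocyte-like, neuroblast-like and microglia-like cells. Pdia4 had 0.10, -0.01, 0.01 and -0.07 in the same order. The intervals of Pdia4 spanned 0 in the last 3 of these classes. Pdia3 overlaps Catsper2 and Pdia6 overlaps Atp6v1c2, in each case on the other strand.

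The lectin chaperones lay on either side of 0. Calr was at 333 and 395 CPM in astrocyte-like cells (log2 ratio 0.25, 0.21 to 0.28) and at 321 and 361 CPM in oligodendrocyte-like cells (0.17, 0.10 to 0.24). It stood at 220 and 239 CPM in neuroblast-like cells and at 1045 and 1072 CPM in microglia-like cells, where both intervals of the ratio spanned 1. Canx was lower in the knockout library, at 221 and 206 CPM in astrocyte-like cells (-0.10, -0.15 to -0.05) and 361 and 319 CPM in oligodendrocyte-like cells (-0.18, -0.25 to -0.11). It was at 230 and 209 CPM in neuroblast-like cells (-0.14, -0.27 to -0.01) and 577 and 530 CPM in microglia-like cells (-0.12, -0.27 to 0.02). None of these Canx ratios was past the fold, and under trimmed mean scaling the one in astrocyte-like cells turned to 0.05. Removal of the trend with transcript length turned it to 0.14 and the one in neuroblast-like cells to 0.06.

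Sdf2l1 was at 16.7 and 22.5 CPM in astrocyte-like cells (log2 ratio 0.43, 0.26 to 0.61), 45.9 and 57.8 CPM in oligodendrocyte-like cells (0.33, 0.15 to 0.52) and 184 and 235 CPM in microglia-like cells (0.35, 0.12 to 0.59). In neuroblast-like cells it rested on 61 and 93 UMIs, with a log2 ratio of 0.05 (-0.43 to 0.54). Herpud1, a membrane protein that helps to clear misfolded chains, was at 62.3 and 76.3 CPM in astrocyte-like cells (0.29, 0.20 to 0.38) and 34.6 and 47.4 CPM in neuroblast-like cells (0.46, 0.14 to 0.78). With cells thinned to 2000 UMIs the neuroblast-like value was 0.02 and no longer past the fold. In oligodendrocyte-like and microglia-like cells its log2 ratios of 0.08 and 0.08 had intervals that spanned 0.

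Other measures moved between the libraries beside these ratios. Summed immediate early genes of the dissociation response stood at 23909 CPM in wild-type and 20130 CPM in knockout microglia-like cells, and at 1251 and 1142 CPM in oligodendrocyte-like cells. The 10 astrocyte markers summed to 831 and 1519 CPM in microglia-like cells, 666 and 905 CPM in oligodendrocyte-like cells and 728 and 689 CPM in neuroblast-like cells, with none of them at 0. In neuroblast-like cells the 8 neuron markers summed to 1155 and 785 CPM, with 1 at 0 in the wild-type library, and the 10 oligodendrocyte precursor markers to 365 and 275 CPM, with 1 and 2 at 0. Hemoglobin was at 3993 and 2544 CPM in microglia-like and at 2310 and 1157 CPM in neuroblast-like cells. Their part in the member ratios was not tested.

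The ratios also moved with transcript length. Across all measured genes of astrocyte-like cells, the median log2 ratio was 0.29 in the bin of the shortest transcripts and -0.45 in the bin of the longest. Canx, with the longest transcript of the set (4281 bases), had a log2 ratio 0.14 above the median of its length bin in astrocyte-like cells, 0.06 above it in neuroblast-like cells, 0.03 below it in oligodendrocyte-like cells and 0.01 below it in microglia-like cells. Sdf2l1 has the shortest (1108 bases), and its ratio exceeded the median of its bin by 0.11 in astrocyte-like, 0.17 in oligodendrocyte-like and 0.09 in microglia-like cells. In neuroblast-like cells its value after that subtraction was -0.16. Manf (2247 bases) exceeded its bin by 0.29 in astrocyte-like, 0.37 in oligodendrocyte-like, 0.45 in neuroblast-like and 0.32 in microglia-like cells. Hspa5 (3672 bases) exceeded its bin by 0.22, 0.38, 0.16 and 0.04 in the same order. Over the 10 members the median excess was 0.16, 0.10, 0.16 and 0.07.

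**Figure D4:**
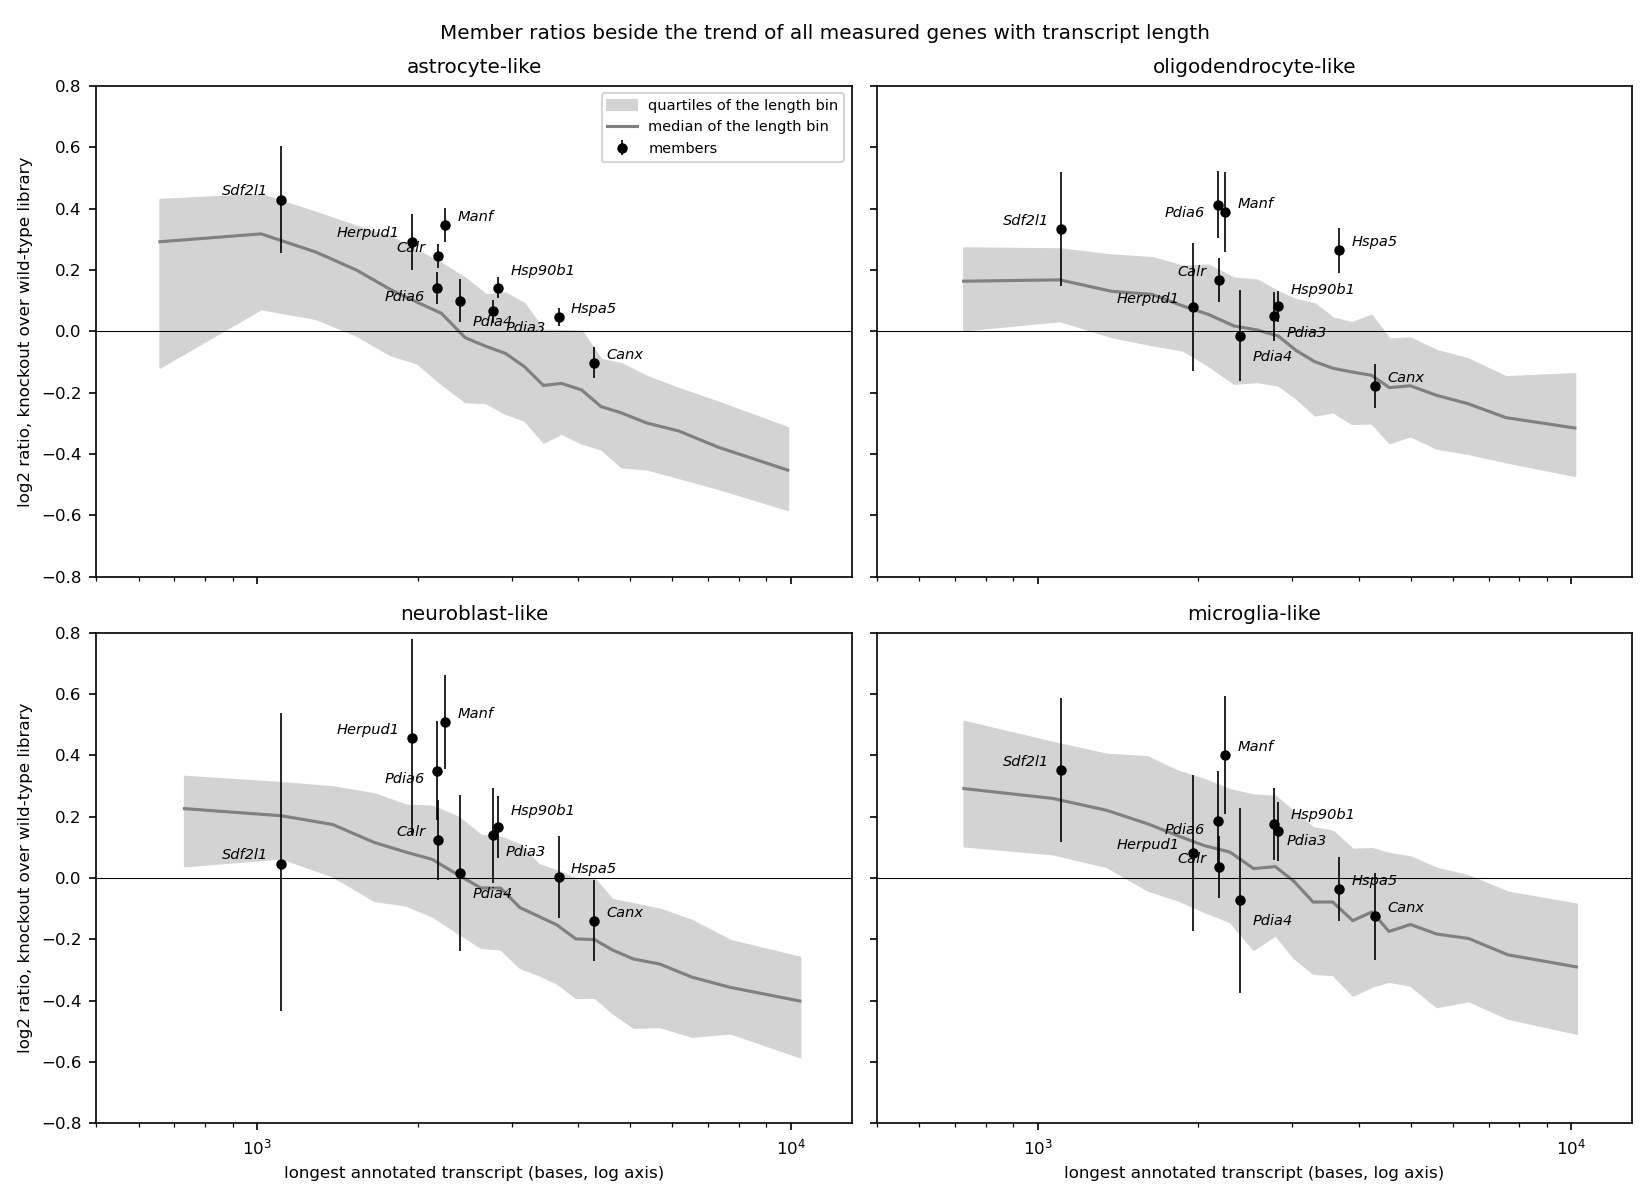
Log2 ratio of each member (black points with exact 95% intervals) against its longest annotated transcript (bases, log axis) in the 4 largest classes, with the median (line) and quartiles (band) of all measured genes in bins of transcript length. The ratios of all genes fall with length, Manf lies above the band in each panel, and Canx lies within it.

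The 5 smaller classes gave a mixed picture from fewer UMIs. In endothelial-like cells the summed log2 ratio was 0.04 (-0.04 to 0.13). There 2 of 9 measured members were past the fold on the higher side (Manf and Herpud1, background 19.2%) and 1 on the lower side (Canx, background 21.1%). Canx was at 307 and 224 CPM there (log2 ratio -0.45, -0.71 to -0.20). In fibroblast-like cells the summed level was lower in the knockout library, with a log2 ratio of -0.16 (-0.21 to -0.11), against a median of -0.04 over all genes. Here 1 of 10 members was past the fold on the higher side (Pdia4, background 18.1%) and 1 on the lower side (Canx, background 25.1%). The 4 most abundant members there, Hsp90b1, Calr, Hspa5 and Pdia3, had log2 ratios of -0.16, -0.20, -0.25 and -0.24.

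In B cell-like cells the summed log2 ratio was 0.16 (0.04 to 0.28). There 3 of 9 members were past the fold on the higher side (Pdia4, Pdia6 and Manf, background 16.8%) and 1 on the lower side (Herpud1, background 32.9%). In T cell-like cells it was -0.04 (-0.18 to 0.10), with 0 of 8 members past the fold on the higher side (background 18.2%) and 1 on the lower side (Canx, background 27.1%). Erythroid-like cells gave 0.30 (0.17 to 0.44) beside a median of 0.23 over all genes. There 4 of 9 members were past the fold on the higher side (Pdia3, Pdia4, Calr and Herpud1, background 43.4%) and 0 on the lower side (background 14.5%). With each erythroid-like cell weighed the same, the summed log2 ratio turned to -1.04. With trimmed mean scaling the background was 24.3% higher and 26.4% lower in B cell-like cells, 23.1% and 22.2% in T cell-like cells and 27.1% and 23.3% in erythroid-like cells. The members past the fold were then 5, 2 and 3 on the higher and 1, 1 and 0 on the lower side. Whether classes differ in the size of the library difference was not tested.

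To see whether the differences sat in a few cells, each cell was thinned to 2000 UMIs and shallower cells were left out. Astrocyte-like cells then held a mean of 4.71 (wild type, 1979 cells, 387 left out) and 5.12 (knockout, 3908 cells, 309 left out) member UMIs. Their 25th percentile moved from 2 to 3 and their median from 4 to 5, while the 90th percentile was 9 in both. Neuroblast-like cells held 2.89 and 3.5, with medians of 2 and 3. Microglia-like cells held 10.8 and 12.1, with medians of 10 and 11, and fibroblast-like cells 14.0 and 12.7, with medians of 12 and 12. The fibroblast-like quartiles were 8 and 16 in both libraries. Their 90th percentile was 26.4 in the wild-type (49 cells) and 20 in the knockout library (121 cells). Few wild-type cells lie above it, and the part of the highest cells in the difference was not tested. In erythroid-like cells, the lowest class, where hemoglobin took most of the UMIs, the means were 1.42 and 1.15.

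**Figure D5:**
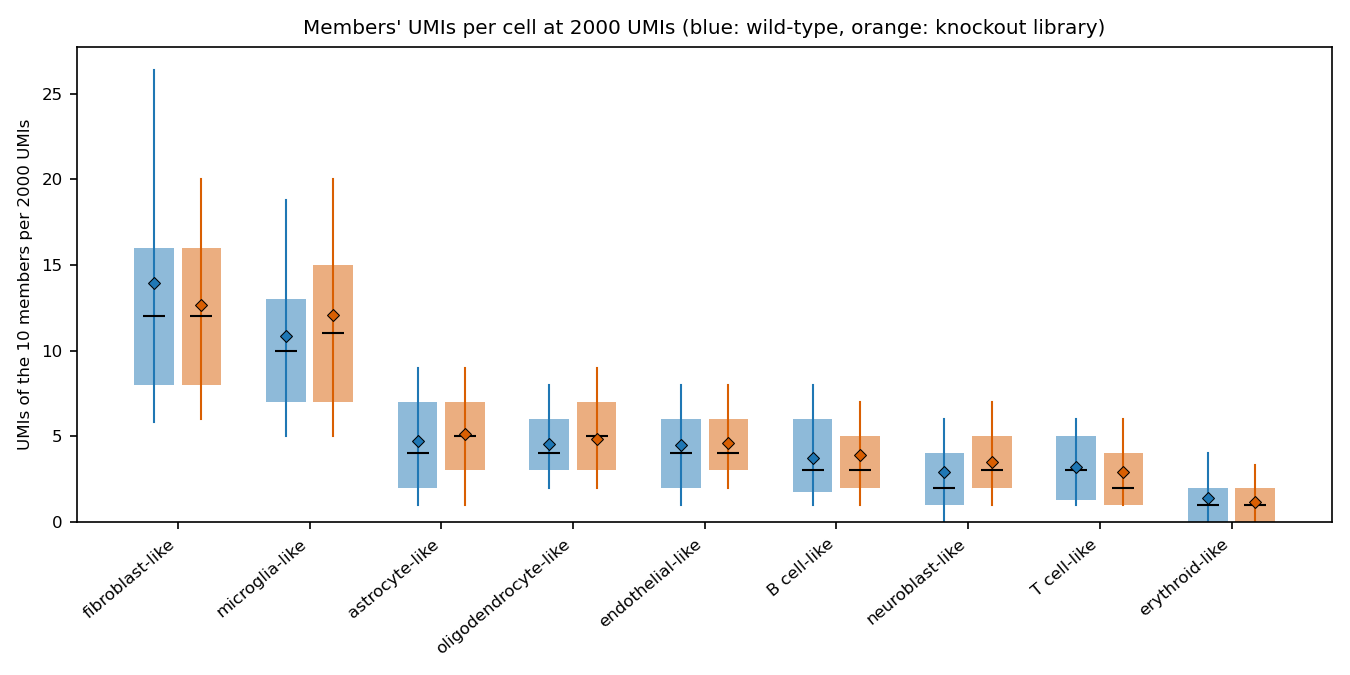
Member UMIs per cell after thinning every cell to 2000 UMIs, by class and library, with boxes for the quartiles, whiskers from the 10th to the 90th percentile, a line at the median and a diamond at the mean. Microglia-like and fibroblast-like cells lie above all other classes in both libraries, and the libraries overlap widely within each class.

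The share of thinned neuroblast-like cells with a Manf UMI was 20.2% in the wild-type (15.1 to 26.1) and 33.2% in the knockout library (28.4 to 38.2), with exact Clopper-Pearson intervals. Thinning left out 12 wild-type and 83 knockout neuroblast-like cells, 125 and 43 oligodendrocyte-like cells, and 65 and 105 microglia-like cells. The part of this selection in the shares was not tested. Without thinning the neuroblast-like shares were 59.6% and 63.9%, at median depths of 12242 and 9347 UMIs. In oligodendrocyte-like cells the thinned shares for Manf were 15.5% (12.6 to 18.7) and 23.0% (20.1 to 26.2), and 56.8% and 65.3% without thinning. In microglia-like cells they were 37.3% (30.5 to 44.5) and 49.1% (42.3 to 55.9), and 56.6% and 60.3% without thinning. For Hspa5 in astrocyte-like cells they were 59.1% and 61.7%. No class is known to lack these genes, and in thinned erythroid-like cells, the lowest, 15.4% and 8.33% had a Manf UMI.

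Subsets within the classes, formed after the class values were known, showed the same library order in the summed level. Neuroblast-like cells with a UMI of the division genes Mki67 or Top2a held 1722 CPM of the members in the wild-type (104 cells) and 1910 CPM in the knockout library (191 cells). Those without held 1287 CPM (131 cells) and 1413 CPM (266 cells). The largest part of that gap was Hsp90b1, at 443 and 494 CPM with a division gene and 216 and 244 CPM without. Hspa5 differed little, at 215 and 226 CPM with and 212 and 190 CPM without. Cells with a UMI of a chosen gene are also deeper, here with medians of 22849 and 18463 UMIs against 8703 and 6180, and the part of depth was not tested.

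Astrocyte-like cells with a Gfap UMI, a marker of reactive and white matter astrocytes, held 2757 and 2960 CPM of the members, against 2472 and 2703 CPM without one. Oligodendrocyte-like cells with the mature marker Klk6 held 2386 and 2619 CPM, against 2242 and 2419 CPM without. For Opalin, another marker of mature oligodendrocytes, the order was the opposite, with 2223 and 2400 CPM in cells with a UMI (577 and 640 cells) and 2551 and 2688 CPM in those without (129 and 164 cells). Median UMIs were 13673 and 11172 with Opalin and 2919 and 12025 without. Microglia-like cells with a UMI of the chemokine genes Ccl3 or Ccl4 held 5462 and 5674 CPM, below the 5795 and 6214 CPM of those without. In each of these pairs the knockout library lay above the wild-type library in both subsets.

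Other genes of the secretory pathway were taken from 8 lists chosen by function. The translocon and signal peptidase list, whose products bring chains into the compartment, had a median ratio above 0 in the 4 largest classes. Of its 18 genes, 8 were past the fold on the higher side in astrocyte-like, 0 in oligodendrocyte-like, 4 in neuroblast-like and 6 in microglia-like cells, and 0 were on the lower side. The background on the higher side was 14.1%, 9.03%, 9.73% and 18.8% in that order. With trimmed mean scaling it was 25.4% in astrocyte-like cells, but the genes of the list were not counted under that scaling. The median log2 ratio of the list was 0.31, 0.15, 0.21 and 0.24 in that order. It was 0.13, 0.06, 0.11 and 0.11 after the median of the length bins was subtracted. Spcs1, a signal peptidase subunit, stood at 128 and 194 CPM in astrocyte-like cells (log2 ratio 0.60, 0.54 to 0.66), and Dad1, of the oligosaccharyltransferase, at 160 and 233 CPM (0.54, 0.49 to 0.60).

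The sensors and regulators that act on the members had medians below 0, of which that in microglia-like cells was near 0 and turned sign with trimmed mean scaling. Of the measured genes, 4 of 10 in astrocyte-like, 2 of 9 in oligodendrocyte-like, 4 of 7 in neuroblast-like and 0 of 8 in microglia-like cells were past the fold on the lower side. The background on that side was 27.9%, 20.1%, 26.7% and 21.3%, so the count in oligodendrocyte-like cells lay near it. On the higher side 1 was, Atf6b in microglia-like cells. The median log2 ratio of the list was -0.28, -0.13, -0.51 and -0.02, and 0.00, 0.04, -0.27 and 0.04 after subtraction of the length bins. Atf6 stood at 28.9 and 20.9 CPM in astrocyte-like cells (log2 ratio -0.47, -0.62 to -0.31) and at 29.8 and 19.6 CPM in neuroblast-like cells (-0.60, -1.01 to -0.20). The protease gene Mbtps1, which cleaves Atf6, had -0.48 and -0.54 in these classes. Xbp1, whose spliced form is made by Ire1, had -0.07 in astrocyte-like and 0.29 in oligodendrocyte-like cells.

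The Atf4 arm, which responds to Perk, had a median log2 ratio of 0.00 in astrocyte-like (5 measured genes), -0.10 in oligodendrocyte-like (3), -0.04 in neuroblast-like (5) and -0.27 in microglia-like cells (3). After subtraction of the length bins this median was -0.14, -0.17, -0.18 and -0.37, below 0 in each of these classes. Atf4 itself stood at 78.0 and 77.9 CPM in astrocyte-like cells, and Ddit3, which encodes CHOP, at 45.1 and 49.9 CPM. The BiP and Hsp90 co-chaperones had medians of -0.11, -0.01, -0.06 and 0.11 in the order above, with 1, 0, 0 and 3 of 11 genes past the fold on the higher side and 3, 0, 0 and 2 on the lower side. The 3 on the lower side in astrocyte-like cells lay near the background of 27.9%, and the 2 in microglia-like cells near 21.3%. The 3 on the higher side there stood beside a background of 18.8%. Among them Hyou1, the exchange factor of BiP, was at 27.8 and 19.6 CPM in astrocyte-like cells (log2 ratio -0.50, -0.66 to -0.35). Dnajb11, the partner of Sdf2l1, was at 82.4 and 103 CPM in oligodendrocyte-like cells (0.32, 0.18 to 0.46).

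Disulfide formation genes had medians of 0.06, 0.03, 0.12 and 0.15, with Prdx4, a peroxiredoxin, at 29.3 and 50.5 CPM in astrocyte-like cells (log2 ratio 0.78, 0.66 to 0.91). Prolyl isomerases and calcium binders had 0.03, 0.02, 0.16 and 0.11, with the prolyl isomerase Fkbp2 at 105 and 133 CPM in astrocyte-like cells. Glycoprotein quality control had -0.13, -0.08, -0.12 and 0.20, and 0.01, -0.06, -0.01 and 0.30 after subtraction of the length bins. Its Uggt1, which marks misfolded glycoproteins for another round with Calr and Canx, was lower in all 4 classes, at -0.69, -0.60, -0.45 and -0.53. Degradation of misfolded protein had -0.07, -0.08, 0.02 and 0.02, with Sel1l at 107 and 77.1 CPM and Selenok at 327 and 438 CPM in astrocyte-like cells. The same subtraction gave this list 0.07, 0.04, 0.11 and 0.07, and disulfide formation 0.02, 0.02, 0.10 and 0.11. It gave prolyl isomerases and calcium binders -0.02, -0.07, 0.05 and -0.03, and the co-chaperones 0.03, 0.08, 0.09 and 0.08. Single genes named from the lists are given without that subtraction, and the part of transcript length in their ratios was not tested.

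The members varied together across classes. Over 21 profiles (12 classes, up to 2 libraries each), Pearson's r of log2 levels between pairs of members ran from 0.64 for Sdf2l1 with Herpud1 to 0.96 for Hsp90b1 with Canx. Hspa5 was closest to Calr, at 0.95. Among 8708 other genes, the 5 whose profile was most like the summed members were Mydgf (0.97), P4hb (0.96), Rpn2 (0.96), Ddost (0.94) and Tmed3 (0.93). Profiles of 1 library share its depth and free RNA, and these values describe the 21 profiles only. Erythroid-like profiles are mostly hemoglobin RNA, which lowers the CPM of all other genes together. No r between pairs of other genes was set beside these values as a background.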

How the data were processed

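Single-cell RNA sequencing of cortex gave 2 libraries, 1 wild type and 1 knockout. The authors deposited unnormalized UMI counts for each gene and barcode. Per the file headers they come from Cell Ranger 4.0.0. The submitters' processing notes list mm10 as build, R 4.0.3 and Seurat 3.0. The annotation release and the use of strand are not given in the sources used here. GENCODE M21 gave transcript lengths for 99.6% of genes, matched by identifier.

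Kept cells had 500 genes or more and no more than 20% of UMIs from mitochondrial genes. Scrublet (scanpy 1.11.5) called 0 wild-type and 164 knockout doublets by itself. These calls were set aside, and the highest scores were removed at 0.8% per 1000 barcodes (212 and 448 cells). Markers of each type were scaled to their 99.5th percentile and averaged per cell. A class needed a score of 0.25, a lead of 0.1 and 3 detected markers. The doublet rate and these limits were chosen with the data in view, and names rebuilt in this way can differ from those of the study. UMIs were summed per class and library and scaled to CPM. Python 3.11.15 was used, with matplotlib 3.10.9, pandas 2.3.3, scipy 1.17.1 and numpy 2.4.6. Levels were compared in classes with at least 50 cells, and 200 per library made a main class. Ratios needed 50 UMIs over both libraries. The length trend is the median of 20 bins of transcript length. The code for ratios and intervals was checked on simulated Poisson counts. These held no variation between cells or pools, so the check does not cover such variation. Cells were not treated as replicates of a genotype, and no p-value was made. The intervals of cell shares take the cells of a pool as independent draws and do not cover differences between pools. The members and all gene lists were chosen with earlier results of these data known. All members are named in every class. Of each other list, the 3 most abundant genes and the 3 with the largest ratio could be named. Alternatives covered cell filters, doublets, the gate, scaling, cell weights, thinning, length, a pseudocount of 10 CPM, the fold and the UMI minimum.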

Additional observations from a re-analysis of the deposited data

How the results depend on the processing

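With 1 library per genotype, pool, batch and genotype cannot be told apart, and no replicate could be left out. No paired analysis was possible because there was 1 library per genotype. The summed log2 ratio of the members stayed above 0 under every alternative in astrocyte-like, oligodendrocyte-like, neuroblast-like and microglia-like cells, and below 0 in fibroblast-like cells. Trimmed mean scaling set all log2 ratios relative to a shift of -0.15 in astrocyte-like, -0.13 in neuroblast-like, -0.10 in B cell-like and 0.19 in erythroid-like cells, with smaller shifts elsewhere. It gave summed log2 ratios of 0.27 in astrocyte-like, 0.18 in oligodendrocyte-like and 0.28 in neuroblast-like cells. With each cell weighed the same the values were 0.10 in astrocyte-like, 0.14 in microglia-like and -0.11 in fibroblast-like cells. Thinning to 2000 UMIs gave 0.28 in neuroblast-like and 0.16 in microglia-like cells, removing the length trend 0.18 in astrocyte-like cells, and the stricter cell filter -0.093 in fibroblast-like cells. Cells with at least 5000 UMIs, an alternative chosen after seeing the data, gave 0.15 in astrocyte-like and 0.037 in microglia-like cells. In erythroid-like cells the sign turned without a cell filter (-0.17), with each cell weighed the same (-1.04) and after thinning (-0.30). There the stricter cell filter gave 0.093, trimmed mean scaling 0.11, a total without mitochondrial, ribosomal and hemoglobin genes 0.11, removal of the length trend 0.016 and cells with at least 5000 UMIs 0.63. The number of members past the fold on the higher side in astrocyte-like cells went from 2 to 4 with trimmed mean scaling, 1 with 10 CPM added, and 0 with equal cell weights, without the length trend or at a fold of 1.5. In oligodendrocyte-like cells it went from 3 to 1 with equal cell weights and 0 at a fold of 1.5, and in neuroblast-like cells from 3 to 1 and 0 in the same way. In microglia-like cells it went from 2 to 0 without the length trend, at a fold of 1.5 and in cells with at least 5000 UMIs, and thinning put 1 member past the fold on the lower side. The share of all measured genes past the fold was counted only for the class total and trimmed mean scaling. Counts under the other alternatives therefore have no background and describe the members alone. Of 85 single ratios, 51 kept their direction in every setting, as did 20 of the 24 past the fold. The exceptions were Herpud1 in endothelial-like cells, at -0.51 after thinning, and Pdia3, Pdia4 and Calr in erythroid-like cells, at -1.04, -1.07 and -0.62 with equal cell weights. Where an alternative did not itself change the cells or genes used, the cause was not tested.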
